A study of Mus musculus with 6 samples.

Results

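Interferon-stimulated genes are the antiviral and antimicrobial programme that cells switch on when interferon binds its receptors. The set described here holds 52 mouse genes listed by symbol. It comprises 5 sensors of foreign nucleic acid, 31 effectors, 5 guanylate-binding proteins (GBPs), 4 genes of the Ifi200 family, 4 transcription factors and 3 interferon receptor chains. All 52 were found among the 54532 genes of the deposited tables, and 48 reached the level needed for a test, a mean of at least 1 FPKM (fragments per kilobase of transcript, scaled to the mapped fragments of the library) over the 6 libraries. Zbp1, Mx1, Mx2 and Gbp5 stayed below it.

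The RNA came from a dividing line of mouse bone marrow-derived macrophages, immortalised with v-raf and v-myc retroviruses. There were 3 libraries of wild-type (WT) cells and 3 of cells whose label names a knockout (KO) of 4-1BBL, a surface ligand of the TNF family that Tnfsf9 encodes. Every library came from cells held for 24 hours with IL-4 at 10 ng/ml, the cytokine that drives alternative macrophage activation, so the values are levels under IL-4 and not responses to it or to an added interferon. The labels name no strain or clone and give no origin, culture or animal, for single libraries. The p-values therefore measure the spread between libraries alone, which may be technical, and the genotype cannot be told apart from any other difference between the lines.

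The recovered depth was 19.1 to 26.4 M (mega) assigned fragments per library. Tnfsf9 was read at 10.4 to 14.6 FPKM in the WT libraries and at 10.7 to 11.4 FPKM in the others, with a log2 difference of -0.15 ± 0.11 (SE) and an adjusted p of 0.273 in limma. The labels do not state which part of Tnfsf9 was removed, so its RNA level does not check the genotype, and the second group is called KO-labelled throughout. All 7 macrophage markers examined reached 1 FPKM in at least 1 group. Their summed level was 1871 to 1912 FPKM in WT against 1156 to 1213 FPKM in KO-labelled libraries, with Lyz2 the largest part. The single markers split. Lyz2 (means of 1207 and 484 FPKM), Cd68 (426 and 275 FPKM) and Csf1r (232 and 134 FPKM) fell. Adgre1, the gene of the macrophage surface protein F4/80, rose from 11.8 ± 0.625 to 268 ± 6.07 FPKM (SD, n = 3). Fcgr1 rose from 8.46 to 23.0 FPKM and Mertk from 2 fragments in WT to 1197 in KO-labelled libraries, while Itgam did not pass the test. Of the 5 conventional dendritic cell markers, 0 reached 1 FPKM, and the sum of the list was 0.475 to 0.797 FPKM in WT against 0.340 to 0.526 FPKM in KO-labelled libraries. Of the 6 markers of plasmacytoid dendritic cells, a major interferon source, 2 reached 1 FPKM, among them Bst2, which is also a set gene. Without Bst2 the list summed to 2.52 to 2.81 FPKM in WT against 1.97 to 2.54 FPKM in KO-labelled libraries, and the defining marker Siglech was at 0 in every library, while Spib had 0 fragments in WT and 45 in KO-labelled libraries. In the T and NK cell list 5 of 6 markers were at 0, and in the fibroblast list 4 of 5. The neutrophil list summed to 0 to 0.141 FPKM in WT against 0.655 to 1.24 FPKM in KO-labelled libraries, with Ly6g, S100a9 and Ngp at 0. S100a8 of that list had 1 fragment in WT and 33 in KO-labelled libraries. The B cell list summed to 0.0628 to 0.615 and 1.43 to 1.80 FPKM, with Ms4a1 at 0 and Cd79b at means of 0.230 and 1.54 FPKM. Whether any of these levels had a part in the results was not tested. In bulk RNA, fewer cells with a transcript and less of it per cell cannot be told apart.

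As background, type I interferons bind a receptor of the chains Ifnar1 and Ifnar2, and type II interferon binds Ifngr1 and Ifngr2. The receptors act through the kinases Jak1, Jak2 and Tyk2, which phosphorylate transcription factors such as Stat2. Stat2 and Irf9 belong to a complex that binds the interferon-stimulated response element (ISRE) near the start of many of these genes, while type II interferon acts through gamma-activated sites. In macrophages a low tonic signal keeps part of the programme on, and the products detect, degrade or wall off viral and bacterial material.

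The ISRE is built on a repeated GAAA, searched here as GAAA, any 2 bases and GAAA again on both strands of the 300 bases around each RefSeq start site, 250 before and 50 after it. Of the 41 set genes with such a window, 21 (51.2%) held a match, against 3.44% of all 32851 windows and 3.99% of the 27025 genes that have one. A match describes the letters of the GRCm38.p6 reference and not binding in these cells. The stretches below, 30 bases each with the match in capitals, show the element in genes whose RNA differed between the groups in unlike ways, including 1 that fell and 1 that did not pass the test. A repeated TTTC is the same motif read on the other strand, and all stretches are printed along the gene's own strand.
Isg15: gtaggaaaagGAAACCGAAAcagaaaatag
Ifit1: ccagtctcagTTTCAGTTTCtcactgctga
Gbp2: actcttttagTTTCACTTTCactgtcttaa
Rsad2: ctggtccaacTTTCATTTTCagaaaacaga
Ifitm3: aaacttctgaGAAACCGAAActgccgcaga
Oas3: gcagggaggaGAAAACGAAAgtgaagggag
The Isg15 stretch lies at chr4:156200871-156200900 on the minus strand, and 3 overlapping matches fall in its window. Those of Ifit1 (chr19:34640794-34640823, plus strand) and Gbp2 (chr3:142620594-142620623, plus strand) lie before the RefSeq start, as do those of Rsad2 (chr12:26456553-26456582, minus strand) and Oas3 (chr5:120777715-120777744, minus strand). The GENCODE model of Gbp2 begins at 142620602 and so covers the match shown. The Ifitm3 stretch (chr7:141010706-141010735, minus strand) begins inside the transcribed part. Among set genes with a window, a match was present in 17 of the 32 that rose, 1 of the 4 that fell and 2 of the 4 that did not pass the test.

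The interferon genes of the set were mostly higher in the KO-labelled libraries. Of the 48 tested, 40 rose, 4 fell and 4 did not pass, at an adjusted p of 0.05 in limma over all genes. The background share was high, since 60.8% of the 10843 genes tested changed, 30.6% up and 30.2% down. The median log2 difference, KO-labelled minus WT on the log2(FPKM + 1) scale, was 1.08 over the tested set genes and 0.0055 over all tested genes, and the values of single set genes ran from -2.92 to 4.47. A rise of at least 2-fold on that scale was found for 26 set genes, against 7.23% of all tested genes, and a fall of that size for 3, against 6.28%. The lowest KO-labelled library lay above the highest WT library for 41 tested set genes, against 34.1% of all genes. The highest KO-labelled library lay below the lowest WT library for 4, against 33.4%.

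Some of the tested genes passed the level filter through 1 group alone. These were 11 genes at 1 FPKM or more in the KO-labelled mean alone and 1 in the WT mean alone. For them the filter fixed the direction in which the group means differ. The other 36 were at 1 FPKM or more in both groups. Of these, 29 rose, 15 of them by at least 2-fold, 3 fell, 2 of them by at least 2-fold, and 4 were not called. The median log2 difference of the 36 was 0.72. Of the 9869 genes selected in the same way 29.1% rose and 29.5% fell, and their median was 0.00. Shares of 2-fold changes were taken only over all 10843 tested genes, at 7.23% up and 6.28% down. The summed level of all 52 moved the other way, at 1171 to 1197 FPKM in WT against 1049 to 1074 FPKM in KO-labelled libraries, with Ifitm3 alone at 712 FPKM of the WT sum and 218 FPKM of the other. Without Ifitm3 and Bst2, the most abundant pair, the sum was 346 to 357 FPKM in WT against 697 to 723 FPKM in KO-labelled libraries.

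**Figure D1:**
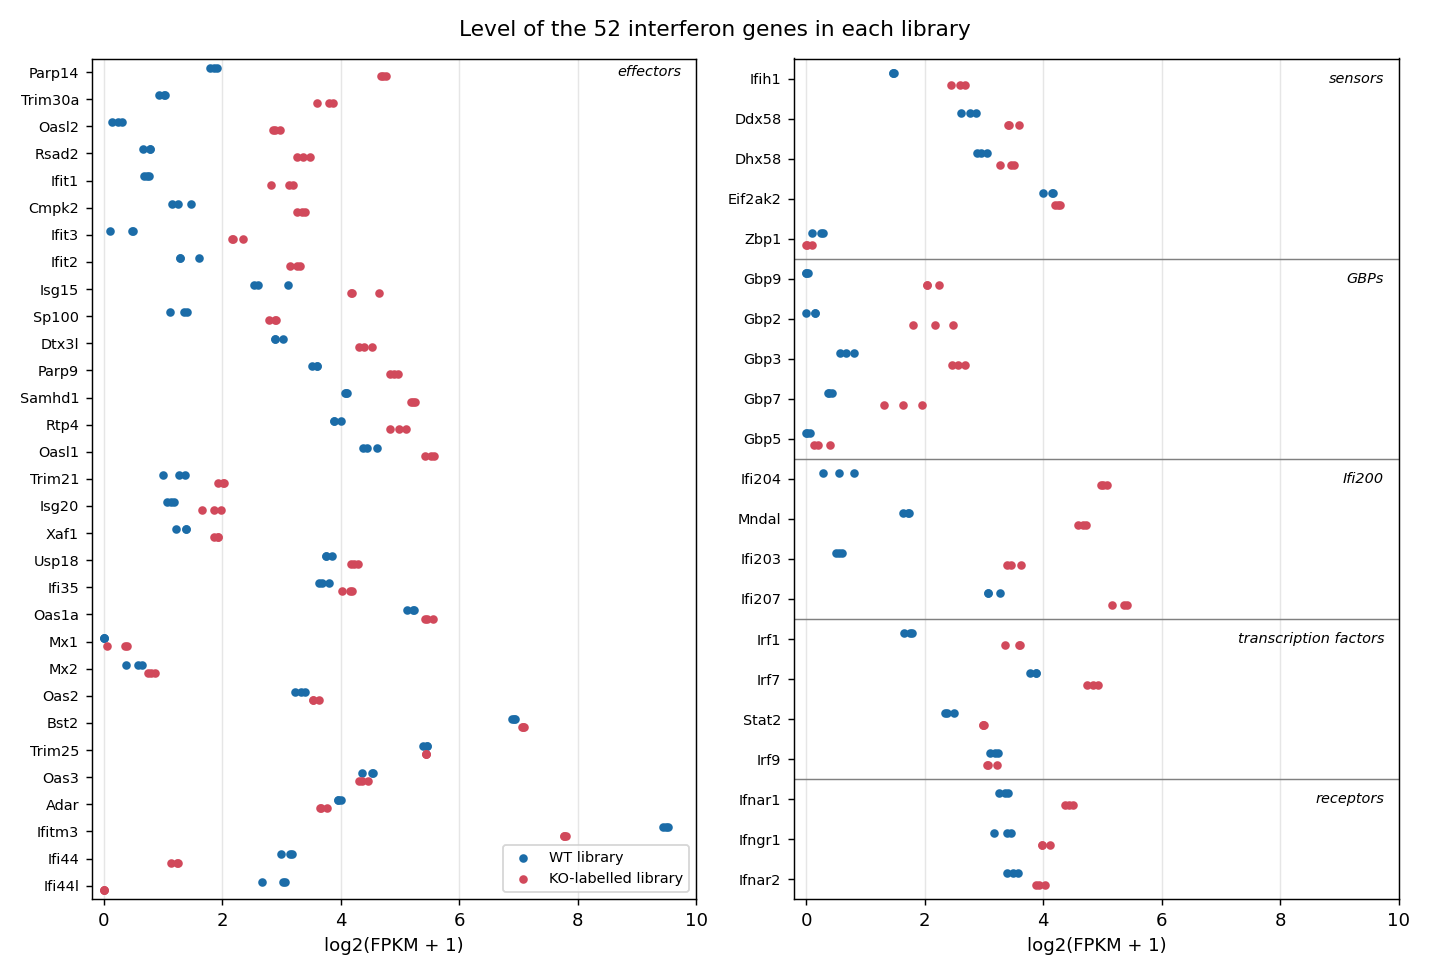
Level of each of the 52 genes in each library, as log2(FPKM + 1) on the horizontal axis, with 1 dot per library, WT in blue and KO-labelled in red, grouped by role and ordered by the difference. The red dots lie to the right of the blue for most genes and to the left for Ifi44l, Ifi44, Ifitm3, Adar and the weakly expressed Zbp1.

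**Figure D2:**
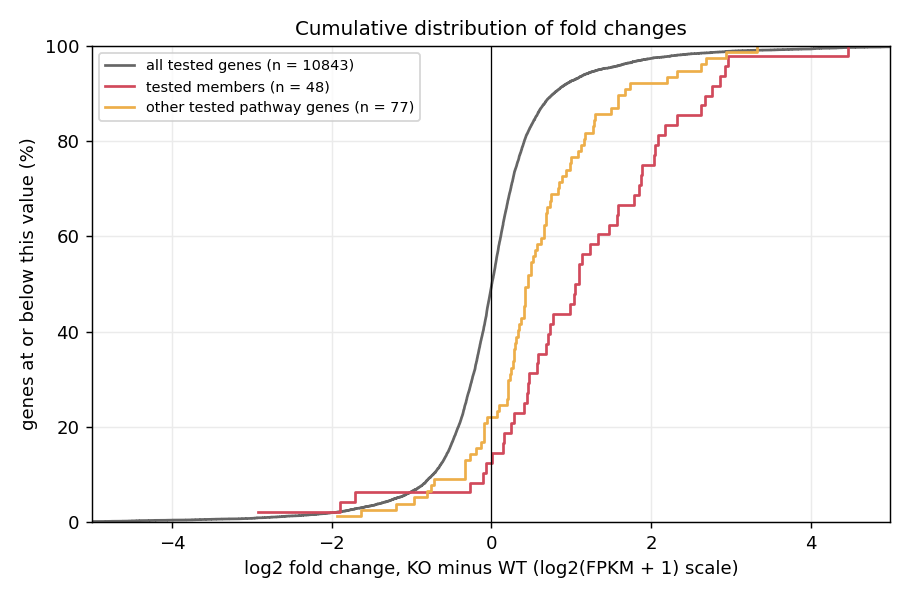
Cumulative share of genes, in percent, at or below each log2 difference (KO-labelled minus WT) for 48 tested set genes, 77 other tested interferon pathway genes and all 10843 tested genes. The curve of the set crosses 50% at 1.08 and that of all genes at 0.0055.

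All 3 receptor chains of the set rose, beside 30.6% of all tested genes. Ifnar1 (chr16:91485238-91507441, GRCm38, plus strand), the low-affinity chain of the type I receptor, was at 8.57, 9.58 and 9.22 FPKM in WT replicates 1 to 3 and at 19.7, 20.7 and 21.8 FPKM in the KO-labelled replicates. The groups did not overlap, and the mean was 2.27-fold higher in the KO-labelled libraries (log2 difference 1.10 ± 0.06 SE, adjusted p 6.75e-06). Ifnar2, the chain that holds interferon most tightly, was at 10.2, 10.9 and 9.48 FPKM in WT against 15.4, 13.8 and 14.2 FPKM in KO-labelled libraries. Again no WT library reached a KO-labelled one, with a smaller ratio of 1.42 (0.47 ± 0.07, adjusted p 0.00096). Ifngr1, the ligand-binding chain for type II interferon, was read at 9.96, 9.50 and 7.98 FPKM against 14.7, 14.8 and 16.4 FPKM. Its ratio of 1.67 lay between those of the other chains (0.69 ± 0.09, adjusted p 0.000477). Ifnar1 and Ifnar2 stand on chromosome 16 beside Il10rb and Ifngr2, and all 4 rose: Il10rb, a chain shared by the receptors for IL-10 and type III interferon, went from 5.27 ± 0.174 to 17.8 ± 1.49 FPKM.

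Among the 4 transcription factors 3 rose and Irf9 did not pass the test, while 30.6% of all tested genes rose. Irf1, a factor induced by type II interferon, was at 2.46, 2.38 and 2.13 FPKM in WT against 11.2, 11.02 and 9.19 FPKM in KO-labelled libraries. That was the largest ratio of the 4, at 4.50 (1.78 ± 0.09, adjusted p 4.09e-06). Irf7, the master factor of type I interferon gene induction, was at 12.7, 13.7 and 13.7 FPKM against 27.5, 25.8 and 29.3 FPKM, a 2.06-fold higher mean (0.99 ± 0.06, adjusted p 1.22e-05). Stat2, which has its main known role in the type I pathway, was at 4.08, 4.65 and 4.199 FPKM against 6.87, 7.01 and 6.93 FPKM, 1.61-fold higher (0.58 ± 0.06, adjusted p 0.000218). In none of these 3 did the groups overlap, and 34.1% of all tested genes were likewise higher in every KO-labelled library. Irf9, the DNA-binding partner of Stat2, was at 8.11, 7.55 and 8.46 FPKM in WT against 7.39, 7.33 and 8.27 FPKM in KO-labelled libraries, which overlapped. Its log2 difference was -0.06, with a 95% interval of -0.23 to 0.10 (adjusted p 0.466), and with values rescaled to TPM, which has 1 common total in every library, its sign turned (0.024).

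A second list held 127 other interferon pathway genes, of which 124 were matched and 77 tested. Of the 77, 52 rose, 11 fell and 14 stayed uncalled, and their median log2 difference was 0.45, against 30.6% up, 30.2% down and a median of 0.0055 over all tested genes. Among the 77, 6 passed the level filter through the KO-labelled mean alone and 2 through the WT mean alone. In the receptor and signalling subgroup 8 of 10 tested genes rose and 0 fell. Jak2, the kinase bound to Ifngr2, was at 13.5 ± 1.03 FPKM in WT against 42.6 ± 3.54 FPKM in KO-labelled libraries (SD, n = 3), a log2 difference of 1.59 (adjusted p 3.84e-06, limma). Socs1, the feedback inhibitor of the Jak kinases and also a gene that IL-4 induces, went from 0.870 ± 0.387 to 10.5 ± 2.02 FPKM, 12.1-fold (2.63, adjusted p 1.95e-05). Ifngr2 rose 1.65-fold and Jak1 by 0.31 on the log2 scale (adjusted p 0.000946). Tyk2, the kinase bound to Ifnar1, averaged 10.3 ± 0.156 and 9.88 ± 0.231 FPKM, not past the test (log2 difference -0.06, adjusted p 0.320, and 0.028 with TPM).

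Irf8, a factor that macrophages need for their development, rose from 5.05 ± 0.305 to 8.74 ± 0.202 FPKM (0.69, adjusted p 7e-05). The second list's group of interferon regulatory factors also holds the Irf2-binding proteins Irf2bp1 and Irf2bp2. Of its 6 tested genes 3 rose, 2 fell and 1 did not pass, beside 30.6% up and 30.2% down over all tested genes. Irf2, a factor that competes with Irf1 for its sites, rose from 4.18 to 8.33 FPKM.

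**Figure D3:**
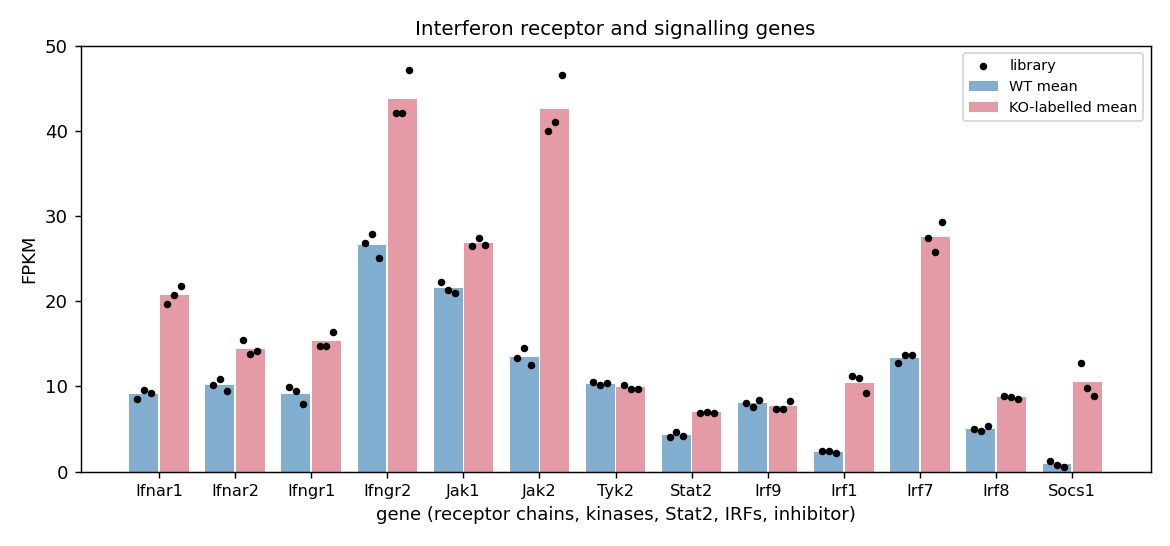
Level in FPKM of interferon receptor chains, kinases, Stat2, IRFs and the inhibitor Socs1, with bars for the mean of 3 libraries and 1 dot per library. Jak2, Ifnar1, Irf1, Irf7 and Socs1 are higher in every KO-labelled library than in any WT library, while the dots of Irf9 overlap and those of Tyk2 nearly touch.

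Transcripts of the interferon genes examined were at or near 0. The list did not hold every Ifna gene, Ifna15 for example being left out. Of 12 interferon genes matched, 11 had no fragment in any library, which allows 0.0778 to 0.279 FPKM at 3 fragments per library, depending on gene length and depth. The exception was Ifnb1, interferon beta, at 0, 0 and 0.0599 FPKM in WT against 0.101, 0.135 and 0.0697 FPKM in KO-labelled libraries. These values rest on 1 fragment in WT and 5 in KO-labelled libraries, a ratio per unit of depth of 4.93 with an exact counting interval of 0.552 to 233, so no difference was detectable at this depth.

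Of the 4 sensors tested 3 rose, beside 30.6% of all tested genes. Ifih1 (MDA5), a helicase that binds long double-stranded RNA, was at 1.76, 1.78 and 1.78 FPKM in WT against 4.43, 5.06 and 5.41 FPKM in KO-labelled libraries. The groups were well apart, with a 2.80-fold higher mean (1.10 ± 0.08, adjusted p 3.24e-05). Ddx58 (RIG-I), which binds RNA with a 5′ triphosphate, rose from 5.72 ± 0.568 to 10.1 ± 0.808 FPKM, and Dhx58 (LGP2), which modulates both helicases, from 6.78 ± 0.453 to 9.68 ± 0.883 FPKM. Eif2ak2 (PKR), the RNA-activated kinase that stops translation, stood at 16.2 ± 1.17 and 17.96 ± 0.586 FPKM, which did not pass (0.14, 95% interval -0.01 to 0.29, adjusted p 0.0927), though it did under 2 other scalings. Zbp1, a sensor of left-handed nucleic acid, was below the tested level with 36 fragments in WT and 6 in KO-labelled libraries, against the direction of the other sensors. Adaptors and sensors of the second list were mixed, with 6 of 12 tested up, 3 down and 3 not passing, beside 30.6% up and 30.2% down over all tested genes. Tmem173 (STING), the adaptor of cytosolic DNA sensing, rose from 7.99 to 21.1 FPKM, and Tlr3, the endosomal receptor for double-stranded RNA, from 0.275 to 1.89 FPKM.

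The 31 effectors, of which 29 were tested, held all the falls of the set. Of the 29, 23 rose, 15 of them by at least 2-fold, 4 fell and 2 did not pass. Over all tested genes 30.6% rose and 30.2% fell. Ifit1, Ifit3, Oasl2, Rsad2 and Trim30a passed the level filter through the KO-labelled mean alone. Ifi44l passed it through the WT mean alone. For these genes the filter fixed the direction in which the group means differ. The Ifit proteins bind viral RNA ends and block its translation. Ifit1 was at 0.599, 0.708 and 0.660 FPKM in WT against 6.06, 7.76 and 8.18 FPKM in KO-labelled libraries, 11.2-fold higher (2.32 ± 0.11, adjusted p 3.64e-06). Ifit2 was at 1.44, 1.44 and 2.04 FPKM against 8.56, 8.88 and 7.85 FPKM, 5.147-fold higher (1.84, adjusted p 7.83e-06). Ifit3 went from 0.0805, 0.387 and 0.412 FPKM to 3.56, 3.49 and 4.10 FPKM, 12.7-fold (1.88, adjusted p 2.42e-05). No WT library came near a KO-labelled one in these 3 neighbours on chromosome 19, although the split of fragments between Ifit3 and its near-identical copy Ifit3b depends on the counting.

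Isg15, a ubiquitin-like protein joined to other proteins during infection, was at 4.77, 7.65 and 5.05 FPKM in WT against 24.1, 17.1 and 17.1 FPKM in KO-labelled libraries, 3.34-fold higher (1.59 ± 0.19, adjusted p 0.000342). Its standard error was the largest among the effectors, yet the groups did not overlap, and a near-identical copy (AC151275.1) makes its level uncertain. Isg20, an RNA exonuclease, rose from 1.19 to 2.58 FPKM. Usp18, which removes Isg15 from proteins and damps signalling at Ifnar2, rose less, 1.39-fold, from 12.8 to 17.8 FPKM (adjusted p 0.000397).

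Rsad2 (viperin) makes a chain-terminating nucleotide from the product of Cmpk2, and both genes sit together on chromosome 12. Rsad2 was at 0.583, 0.723 and 0.725 FPKM in WT against 8.64, 9.34 and 10.1 FPKM in KO-labelled libraries, 13.8-fold higher (2.63, adjusted p 4.92e-07). Cmpk2 was at 1.39, 1.23 and 1.78 FPKM against 9.20, 9.48 and 8.57 FPKM, 6.19-fold higher (2.04, adjusted p 3.29e-06). Both were separated between the groups by several times their spread. Samhd1, which depletes the nucleotides a virus copies its DNA from, was at 16.2, 15.9 and 15.8 FPKM against 36.2, 35.3 and 37.2 FPKM, 2.27-fold higher (1.13, adjusted p 1.13e-06).

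The 2′-5′-oligoadenylate synthetases, which answer double-stranded RNA by activating RNase L, did not move as a block. Oas1a rose 1.23-fold, from 35.5 to 43.5 FPKM, with a near-identical copy in Oas1g, and Oas2 1.21-fold, from 8.98 to 10.9 FPKM (adjusted p 0.0112), while Oas3 averaged 21.3 ± 1.44 and 19.8 ± 1.04 FPKM and was not called (-0.10, 95% interval -0.26 to 0.06, adjusted p 0.233). The synthetase-like genes Oasl1 and Oasl2, neighbours elsewhere on chromosome 5, rose by unlike amounts. Oasl2 was at 0.184, 0.106 and 0.233 FPKM in WT against 6.41, 6.82 and 6.21 FPKM in KO-labelled libraries, 37.2-fold higher (2.67 ± 0.09, adjusted p 5.39e-07). Oasl1, which restrains Irf7 translation, was already expressed in WT, at 23.4, 20.7 and 19.8 FPKM, and stood at 45.04, 41.9 and 46.6 FPKM in KO-labelled libraries, 2.09-fold higher (1.03, adjusted p 2.24e-05). For both genes every KO-labelled value exceeded every WT value.

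Parp14, Dtx3l and Parp9 are neighbours on chromosome 16 whose products attach ADP-ribose or ubiquitin to proteins, and all 3 rose. Parp14 was at 2.75, 2.62 and 2.48 FPKM in WT against 25.2, 24.7 and 26.1 FPKM in KO-labelled libraries, 9.69-fold higher (2.87 ± 0.06, adjusted p 5.01e-08). Dtx3l was at 7.15, 6.39 and 6.46 FPKM against 19.96, 18.8 and 22.1 FPKM, 3.04-fold higher (1.47, adjusted p 4.12e-06). Its partner Parp9 was at 10.4, 11.1 and 11.1 FPKM against 27.5, 29.0 and 30.2 FPKM, 2.66-fold higher (1.33, adjusted p 1.57e-06). Dtx3l and Parp9 overlap at their ends on opposite strands, over 8% and 9.40% of their exons, and fragments from the shared part could have been counted to either.

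Trim30a, a ring-finger protein that dampens Toll-like receptor signalling, showed the second-largest rise among the effectors on the log2 scale. It was at 0.8995, 1.04 and 1.03 FPKM in WT against 12.9, 11.1 and 13.6 FPKM in KO-labelled libraries, 12.7-fold higher (2.76 ± 0.09, adjusted p 4.62e-07). Its promoter, the 250 bases before the RefSeq start at chr7:104465194-104465443 (GRCm38.p6, minus strand), is shown because the gene is among the 3 largest rises that hold the element, here in capitals on the opposite strand close to the start.
Trim30a: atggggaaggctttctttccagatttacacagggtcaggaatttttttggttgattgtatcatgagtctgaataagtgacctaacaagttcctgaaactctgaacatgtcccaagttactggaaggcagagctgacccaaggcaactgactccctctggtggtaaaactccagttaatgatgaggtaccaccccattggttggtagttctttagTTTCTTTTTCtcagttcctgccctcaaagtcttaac
Trim21, the cytosolic antibody receptor, rose from 1.34 ± 0.306 to 2.98 ± 0.134 FPKM, and Trim25, which adds ubiquitin to Ddx58, averaged 42.1 ± 1.28 and 42.3 ± 0.149 FPKM and was not called (0.0057, 95% interval -0.09 to 0.10, adjusted p 0.914, and -0.019 without WT replicate 1).

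Sp100, a nuclear body protein that restricts DNA viruses, was at 1.55, 1.65 and 1.17 FPKM in WT against 6.39, 5.90 and 6.48 FPKM in KO-labelled libraries, 4.31-fold higher (1.57, adjusted p 1.12e-05). Rtp4, a chaperone of taste and opioid receptors that is also interferon-stimulated, was at 13.8, 15.0 and 13.8 FPKM against 27.6, 30.7 and 33.3 FPKM, 2.15-fold higher (1.05, adjusted p 2.54e-05). Neither showed any overlap between the groups. Smaller rises, under 2-fold on the log2 scale, were those of Xaf1 (1.80-fold), which promotes cell death, Ifi35 (1.36-fold), and Bst2 (tetherin), which holds budding virus at the cell surface and went from 119 ± 1.92 to 134 ± 1.35 FPKM. The Mx GTPases, which block viral nucleocapsids, were below the tested level. Mx1 had no fragment in WT and 0.290, 0.309 and 0.0414 FPKM in KO-labelled libraries, 55 fragments in all and at least 5.77-fold higher than a floor of 3 fragments per library, and Mx2 averaged 0.454 and 0.744 FPKM.

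The 4 effectors that fell went against the rest of the set. Ifi44l and Ifi44 are neighbouring paralogues on chromosome 3, their lower ends 28 kb apart, interferon-inducible and of incompletely known function. Ifi44l (chr3:151758737-151762892, minus strand) was at 5.38, 7.15 and 7.31 FPKM in WT against 0 in each KO-labelled library. That is 586 fragments against 0, so its level was at least 64.5-fold lower than WT at a floor of 3 fragments in each library, 0.102 FPKM (log2 difference -2.92 ± 0.12, adjusted p 1.77e-06). Ifi44 kept some signal, at 8.07, 7.80 and 6.96 FPKM in WT against 1.20, 1.37 and 1.39 FPKM in KO-labelled libraries, 5.77-fold lower (-1.89 ± 0.08, adjusted p 1.89e-06). The 250 bases before the RefSeq start of Ifi44l, at chr3:151762892-151763141 (minus strand), are shown for contrast because it fell most; the ISRE core does not occur in its window.
Ifi44l: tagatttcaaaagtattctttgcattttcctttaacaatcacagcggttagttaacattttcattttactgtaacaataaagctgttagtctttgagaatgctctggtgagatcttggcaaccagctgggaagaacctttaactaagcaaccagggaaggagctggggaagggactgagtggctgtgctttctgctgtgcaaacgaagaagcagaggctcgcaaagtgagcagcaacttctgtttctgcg

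Ifitm3 (chr7:141009586-141010770, minus strand), a membrane protein that blocks the fusion of entering viruses, was the most abundant gene of the set in both groups. It was at 729, 694 and 713 FPKM in WT against 216, 221 and 218 FPKM in KO-labelled libraries, so the groups were far apart and each was tight. The mean was 3.26-fold lower in the KO-labelled libraries (-1.70 ± 0.04, adjusted p 7.77e-08). Of its neighbours in the Ifitm cluster, named for their position, 2 fell: Ifitm6 from 23.3 ± 2.27 to 5.502 ± 1.57 FPKM (adjusted p 8.67e-05) and Ifitm2 from 161 ± 8.13 to 128 ± 18.5 FPKM (adjusted p 0.0262), although Ifitm2 has near-identical copies and an exon overlap of 40.9% with Gm45717. Ifitm1 was below the tested level, with 4 fragments in WT against 17 in KO-labelled libraries. Adar, which edits adenosine in double-stranded RNA, fell least, from 14.5, 15.0 and 14.5 FPKM to 11.7, 11.6 and 12.7 FPKM, 1.22-fold lower (-0.27 ± 0.05, adjusted p 0.00363), and 16.8% of its exon length overlaps antisense Chrnb2.

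**Figure D4:**
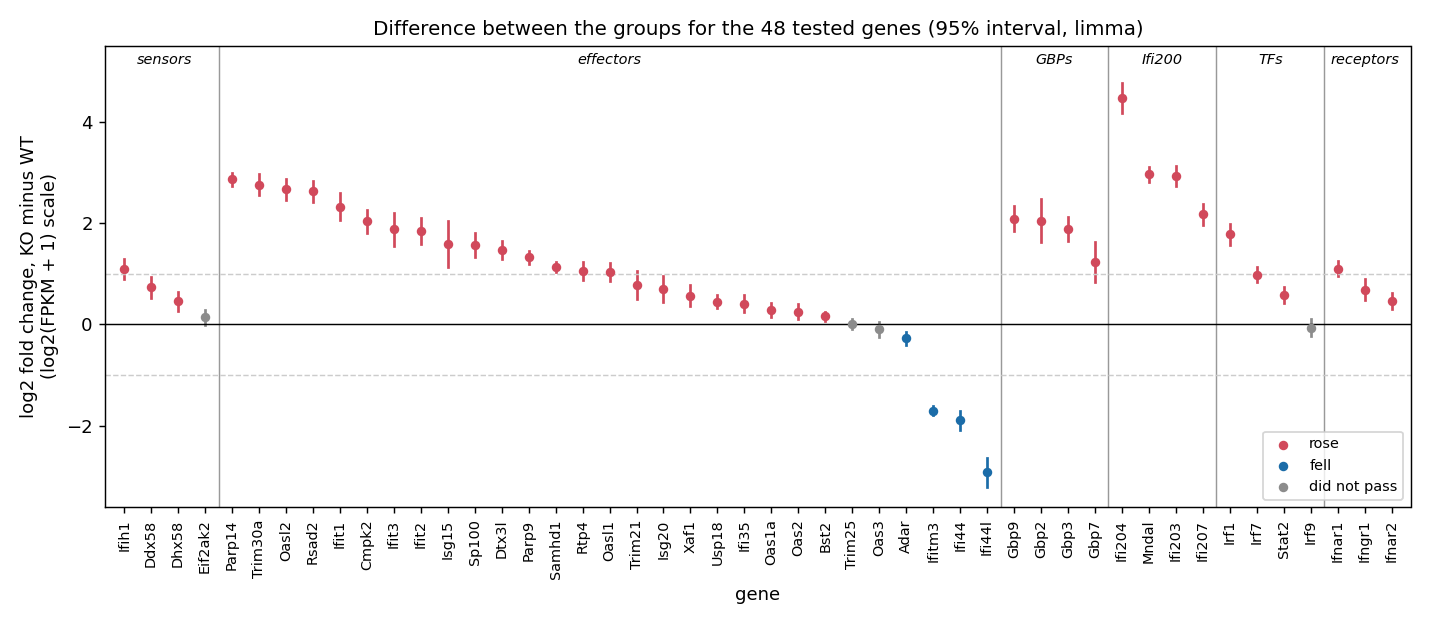
Log2 difference, KO-labelled minus WT on the log2(FPKM + 1) scale, for 48 tested set genes with 95% intervals from limma, by role. Ifi204 is highest at 4.47 and Ifi44l lowest at -2.92, and the dashed lines mark a 2-fold difference on that scale.

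The guanylate-binding proteins are large GTPases that coat pathogen vacuoles and help open them. All 4 tested members rose, beside 30.6% of all tested genes. Each passed the level filter through the KO-labelled mean alone, which fixed the direction in which its group means differ. Gbp2 was at 0, 0.115 and 0.107 FPKM in WT against 3.49, 4.56 and 2.47 FPKM in KO-labelled libraries, 47.4-fold higher (2.05 ± 0.18, adjusted p 6.71e-05). Gbp3 was at 0.588, 0.487 and 0.757 FPKM against 4.93, 4.48 and 5.43 FPKM, 8.10-fold higher (1.88, adjusted p 6.5e-06). Gbp7 was at 0.350, 0.309 and 0.296 FPKM against 2.09, 1.48 and 2.86 FPKM, 6.73-fold higher (1.23, adjusted p 0.000672), with a near-identical overlapping copy in Gm43802. All 3 lie in the cluster on chromosome 3 (chr3:142493978-142638008). In each the lowest KO-labelled library was above every WT library, as in 34.1% of all tested genes. Gbp2 and Gbp7 spread widely among the KO-labelled libraries.

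Gbp9, in the cluster on chromosome 5 (chr5:105014150-105346472), was at 0, 0.0280 and 0 FPKM in WT against 3.13, 3.71 and 3.09 FPKM in KO-labelled libraries. This was 3 fragments against 1111, a ratio per unit of depth of 365 with an exact counting interval of 125 to 1775 (log2 difference 2.09 ± 0.10, adjusted p 4.12e-06). Gbp5, which also promotes inflammasome assembly, stayed under the tested level at 0, 0.0436 and 0.0135 FPKM in WT against 0.0914, 0.145 and 0.315 FPKM in KO-labelled libraries, 8 fragments against 75. The 6 other Gbp genes of the second list were all under 1 FPKM and were not tested. Gbp4 and Gbp6 had no WT fragment and averaged 0.312 and 0.314 FPKM in KO-labelled libraries, Gbp4 at least 16.7-fold and Gbp6 at least 13.4-fold higher when WT is set at a floor of 3 fragments per library. The immunity-related GTPases, a second family that attacks pathogen vacuoles, rose in 4 of 4 tested genes, beside 30.6% of all tested genes. On the log2(FPKM + 1) scale the largest rises among them were those of Irgm2 (1.92 to 7.15 FPKM) and Igtp (2.57 to 7.65 FPKM).

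The Ifi200 genes encode proteins with DNA-binding HIN domains or PYRIN domains, some of which sense DNA in the cytosol or nucleus. All 4 in the set rose, beside 30.6% of all tested genes, with log2 differences from 2.18 to 4.47. Their median of 2.95 was the highest of the 6 roles, although Ifi204 and Ifi203 passed the level filter through the KO-labelled mean alone. Ifi204 (chr1:173747293-173766943, minus strand), a DNA sensor often compared with human IFI16, was at 0.473, 0.217 and 0.744 FPKM in WT against 30.4, 32.6 and 31.2 FPKM in KO-labelled libraries. Its mean was 65.7-fold higher, the largest log2 difference of the set (4.47 ± 0.13, adjusted p 2.89e-07). Ifi207 was at 7.35, 8.59 and 7.36 FPKM against 34.5, 40.04 and 41.4 FPKM, 4.98-fold higher (2.18, adjusted p 1.52e-06), and was the member most expressed in WT. Mndal was at 2.35, 2.29 and 2.09 FPKM against 23.1, 24.4 and 25.3 FPKM, 10.8-fold higher (2.96 ± 0.06, adjusted p 6.54e-08). Ifi203 was at 0.426, 0.474 and 0.522 FPKM against 9.49, 9.92 and 11.4 FPKM, 21.7-fold higher (2.93, adjusted p 3.54e-07). In each of the 4 the groups were separated by several times their spread. Mndal and Ifi203 are near-identical copies of each other, so their separate levels are uncertain.

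The promoters of Mndal and Ifi203 are shown because both genes are among the 3 largest rises that hold the ISRE core, in capitals, and because their sequences are alike. They are the 250 bases before RefSeq start sites at chr1:173880188-173880437 and chr1:173942493-173942742, both on the minus strand of GRCm38.p6. The GENCODE model of Mndal extends further, to 173942491, which is next to the printed Ifi203 window. The GENCODE model of Ifi203 runs to 173942672, so it covers part of that window. Another RefSeq window of Ifi203, chr1:173942673-173942922, adjoins this GENCODE end and held 0 matches. The printed Ifi203 window can thus be assigned to either gene.
Mndal: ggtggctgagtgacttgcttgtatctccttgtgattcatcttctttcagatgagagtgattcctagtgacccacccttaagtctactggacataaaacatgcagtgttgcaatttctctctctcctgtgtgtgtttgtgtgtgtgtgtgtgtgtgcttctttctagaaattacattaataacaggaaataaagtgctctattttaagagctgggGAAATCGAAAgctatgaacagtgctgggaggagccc
Ifi203: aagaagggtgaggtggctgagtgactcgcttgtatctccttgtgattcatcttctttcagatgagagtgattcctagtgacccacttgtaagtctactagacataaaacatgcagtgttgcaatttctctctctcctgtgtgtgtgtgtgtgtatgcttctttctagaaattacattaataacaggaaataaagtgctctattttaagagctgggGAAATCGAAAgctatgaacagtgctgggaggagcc
Aligned end to end the pair is 89.3% identical, and the 30 bases around the core show 0 differences. The core of Ifi207 reads the same, but its 30 bases differ at 8 places from both and its promoter is 55.1% identical to that of Mndal. Its stretch lies at chr1:173741831-173741860 on the minus strand.
Ifi207: cctagccaggGAAATCGAAAattaagaaca

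The 13 genes of the Ifi200 cluster span 681 kb of chromosome 1 (chr1:173350879-174031810) and did not all move 1 way. Ifi211, which lies inside the GENCODE span of Mndal, had 2 fragments in WT and 1091 in KO-labelled libraries (0.0177 and 9.25 FPKM). This was a ratio per unit of depth of 538 with an exact counting interval of 149 to 4450 (log2 difference 3.32, adjusted p 6.4e-07). Ifi213 went the other way, from 2.15 ± 0.00638 to 0.0150 ± 0.0130 FPKM, or 948 fragments against 7 (-1.64, adjusted p 1.12e-05). Aim2, the inflammasome DNA sensor, fell from 27.1 ± 1.27 to 15.0 ± 1.15 FPKM (adjusted p 5.36e-05). Ifi202b, a member with HIN domains and no PYRIN domain, was below the tested level at 104 fragments in WT and 0 in KO-labelled libraries, at least 11.5-fold lower. Genes that were near 0 in 1 group and not in the other thus stood on both sides within the cluster.

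**Figure D5:**
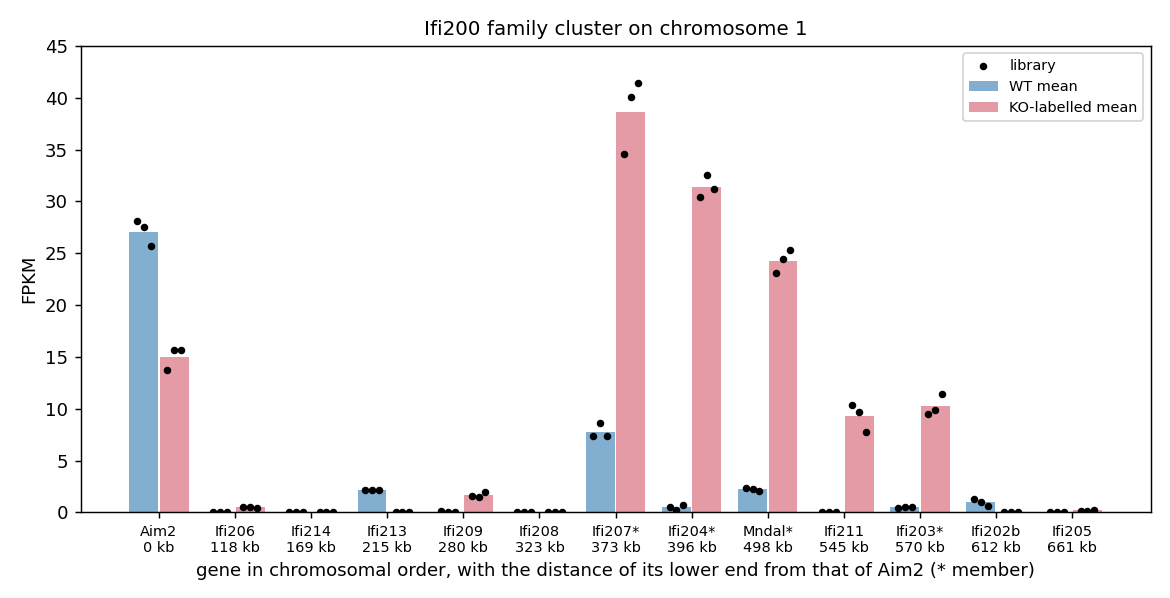
Level in FPKM of the 13 genes of the Ifi200 cluster in chromosomal order, with bars for the mean of 3 libraries and 1 dot per library. Under each name is the distance in kb of the gene's lower end from that of Aim2, and set members carry an asterisk. Ifi207, Ifi204, Mndal, Ifi211 and Ifi203 are higher in KO-labelled libraries, and Aim2, Ifi213 and Ifi202b are higher in WT.

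The remaining effectors of the second list, 42 tested, rose in 30 cases, fell in 4 and did not pass in 8, beside the same background of 30.6% up and 30.2% down. The largest changes were those of Cxcl10, a chemokine for T cells, from 0.541 ± 0.209 to 10.8 ± 0.962 FPKM (19.99-fold, 2.94, adjusted p 1.67e-06), and Cd274, the checkpoint ligand PD-L1, from 1.45 ± 0.213 to 14.8 ± 1.49 FPKM (10.2-fold, 2.69, adjusted p 9.64e-07), which overlaps an antisense gene over 14.1% of its exons.

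The 25 tested set genes with a mean under 10 FPKM had a median log2 difference of 1.57, and the 23 with a higher mean had a median of 0.99. Of the 25, 10 passed the filter through the KO-labelled mean alone and 1 through the WT mean alone, against 1 of the 23, so the filter fixes part of that gap. Over all genes the same split gave medians of 0.02 and -0.01. A gene that shares sequence or position with another could be miscounted. The set was therefore also counted without the 10 genes that have a near-identical copy or an exon overlap of at least 10%. This left 38 tested genes, 31 up, 3 down and 4 uncalled, with a median of 1.07, beside 30.6% up and 30.2% down over all tested genes.

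Other short motifs were present in fewer of the set's windows. TTCNNNGAA, a gamma-activated site, was present in 14 of the 41 set genes with a window (34.1%) and in 8.30% of all windows or 9.55% of all genes, and the same TTC and GAA with 4 bases between them, the spacing that Stat6, the factor of IL-4 signalling, is known to prefer, in 8 of 41 (19.5%) and in 6.95% of windows or 8.01% of genes. Both read the same on either strand.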

How the data were processed

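The authors deposited 1 table per library with FPKM for each Ensembl gene. HISAT2 2.0.5, featureCounts 1.5.0-p3 and mm10 are named, per the submitters' processing notes. For the annotation release, the strand setting and fragments with several map positions, the handling is not given in the sources used here. Directional and non-directional libraries both appear in the labels' protocol, so antisense fragments may not have been separated. Symbols and coordinates come from GENCODE M21 on GRCm38, the assembly also called mm10 (54495 of 54532 identifiers matched), and promoter sequences from RefSeq on GRCm38.p6.

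Genes averaging 1 FPKM or more were tested on log2(FPKM + 1), KO-labelled minus WT, by limma 3.58.1 (R 4.3.3) with a trended variance prior and Benjamini-Hochberg adjustment over all 10843, and every adjusted p is from that fit. The log2 scale understates changes of low genes, and folds are ratios of mean FPKM. Fragments were recovered for 54246 genes from the steps in FPKM times exon length, whole within 0.1 fragment for about 98.0% of low values against 20% by chance. They serve for depth, for floors of 3 fragments per library and for counting intervals, which cover counting error only. Near-identical copies were found with BLAST+ 2.17.0+, as alignments of 150 bases or more with 95% identity that cover 80% of the shorter transcript. The test was checked on simulated data. Alternatives were other pseudocounts, filters and scalings, a voom fit of recovered fragments, a replicate block, each library left out and copies left out.

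The set genes and lists were chosen with earlier results of these data known. All set genes are accounted for. Values per library are given for receptors, transcription factors, genes with a 2-fold rise on the log2 scale, genes that fell and genes at 0 in a group. From the second list come a short set of signalling genes, of which 1 is not reported here, and the 2 largest changes per subgroup. Other genes named were chosen after their values were seen.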

Additional observations from a re-analysis of the deposited data

How the results depend on the processing

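Under 14 alternatives 45 of the 48 tested set genes kept their direction and their side of the threshold wherever they were tested, and none of the 44 called genes reversed or lost its call. The count of set genes higher in KO-labelled libraries was 39 to 40 with 1 library left out, the count lower 4 to 4 and the median log2 difference 1.00 to 1.13. Over all tested genes those fits called 2890 to 3160 higher and 2825 to 3248 lower. With a mean of at least 5 FPKM required, 34 were tested, 28 were higher and 2 lower, since fewer genes were tested. At that filter 2340 of all 7290 tested genes were higher and 2370 lower. The median was 1.21 with values rescaled to TPM, where 41 were higher and 4 lower and all tested genes split into 3969 higher and 2642 lower with a median of 0.0959, and 1.21 with voom on recovered fragments. The uncalled differences that changed sign were those of Irf9 (0.024) and Tyk2 (0.028) with TPM and of Trim25, which ran from -0.019 without WT replicate 1 to 0.021 without WT replicate 2; the cause was not tested. Eif2ak2 passed with TPM (0.24, adjusted p 0.0197) and with voom (0.18, adjusted p 0.0276). Same-numbered libraries did not deviate together (correlations of -0.03, 0.05 and -0.03). These values cannot show whether such libraries shared a batch, and the labels do not say. With the replicate block 40 set genes were higher and 4 lower, with a median of 1.08, and over all genes 3119 were higher and 3075 lower. Depth limits the genes with few fragments, namely Zbp1, Mx1, Gbp5 and Ifnb1.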
